A study of Danio rerio with 6 samples.

Results

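The 9 *soxB* genes of zebrafish were followed in cells sorted from *drl:EGFP* embryos, whose EGFP is under control of *draculin* (*drl*) regulatory sequence. They are *sox1a*, *sox1b*, *sox2*, *sox3*, *sox19a* and *sox19b* of the SoxB1 subgroup, and *sox14*, *sox21a* and *sox21b* of the SoxB2 subgroup. Members were chosen by their symbol in the deposited annotation, and all 9 of the 25962 genes with a symbol were found, on 14 of 75212 transcript clusters. A transcript cluster is a set of probes that stands for a gene or for part of it. Each *soxB* cluster has 11 to 25 probes. The 14 clusters hold 13 distinct sets of values, since the 2 copies of *sox21a* on unplaced sequence share the same 6 values and were treated as 1. The parents, 1 family of fish homozygous for the transgene, were bred in groups on 3 occasions, and living cells of the pooled offspring were separated by EGFP fluorescence at the 2 somite stage. RNA of the EGFP-positive and of the EGFP-negative cells was hybridized to Affymetrix ZebGene arrays with a single label, 3 per fraction, and expressed as log2 signal after RMA normalization. Both fractions carry the transgene. The EGFP-negative fraction is not a tissue but every living cell in which the reporter was not detected. It can hold neural plate, epidermis, somites and axial mesoderm together, and its make-up was not measured directly.

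SoxB proteins bind DNA through an HMG box, a domain shared by all Sox factors. SoxB1 proteins activate transcription and keep cells of the neural plate as dividing progenitors, whereas SoxB2 proteins mostly repress transcription and counteract SoxB1 at overlapping sites. In zebrafish, *sox2*, *sox3*, *sox19a* and *sox19b* act redundantly in the early neural ectoderm, and the Sox19 branch is known from fish. At the stage sampled the neural plate lies medially, while the *drl* reporter marks the lateral plate mesoderm, which the paper describes at the embryo margin.

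All 6 genes of the SoxB1 subgroup were lower in EGFP-positive cells, by 2.01-fold for *sox1a* to 5.89-fold for *sox19a*. Of the SoxB2 genes, *sox21a* and *sox21b* were lower by 1.79-fold and 1.88-fold, while *sox14* did not pass the test. In all, 8 of 9 *soxB* genes were lower and 0 were higher at a Benjamini-Hochberg adjusted p under 0.09 from limma, where 3.49% of all genes were lower and 4.13% were higher. Their median log2 difference was -1.28, beside -0.0048 over all genes. The median was -1.80 for SoxB1 and -0.84 for SoxB2, a difference between subgroups that was not tested. The SoxB2 median rests on 3 genes and is the value of *sox21a*, which was -1.69 by another of its clusters. The SoxB2 gene *sox14* had signals close to the array medians. Fewer neural cells and less RNA per cell cannot be told apart in sorted pools of this kind. In the count of separate values, 11 of 13 clusters were lower, where 1.84% of all clusters were, and 0 were higher, where 2.96% of all clusters were. Every EGFP-positive array lay below every EGFP-negative array for 8 of the 9 genes, as for 12.6% of all genes.

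Where a gene had several clusters, the brightest by its mean of the 6 arrays stood for it. Fold values are differences of mean log2 signals turned back to a linear scale, and positions refer to Zv9. Exact two-sided permutation tests of 3 arrays against 3 cannot give a p below 0.1, the value of every *soxB* gene but *sox14* (exact permutation p = 0.3), so limma, which shares the estimate of spread over all clusters, is the test given. Signals are set side by side only within a gene, since probes differ in brightness.

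**Figure D1:**
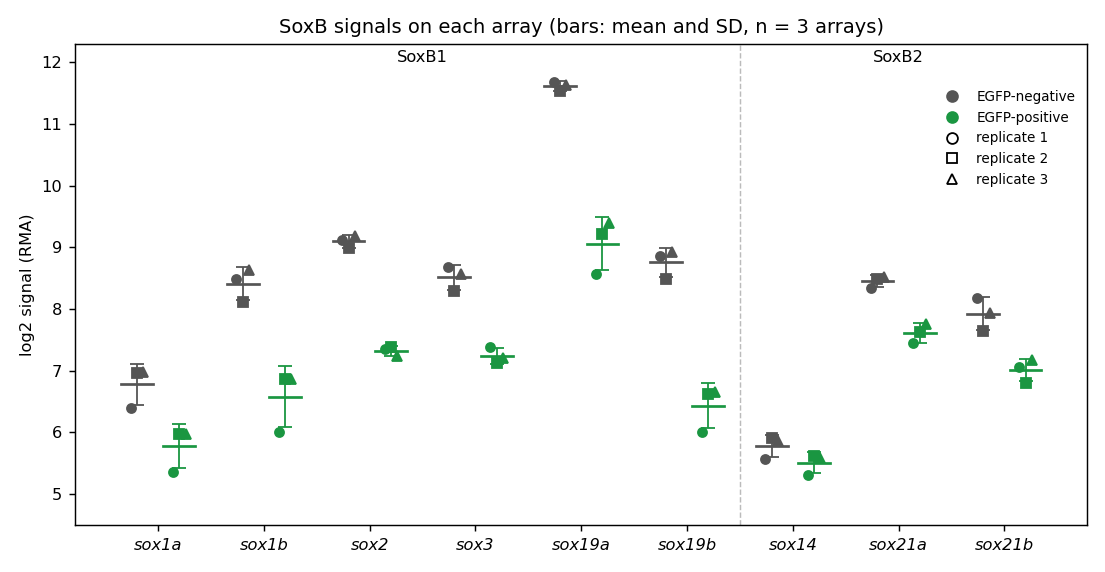
Log2 signal (vertical axis) of each *soxB* gene (horizontal axis) on the 3 EGFP-negative arrays in grey and the 3 EGFP-positive arrays in green, with marker shapes for replicates and bars for mean and SD. The fractions do not overlap for 8 genes, and *sox14* is the exception.

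The 2 Sox19 paralogs had the largest differences. *sox19a*, a marker of the neural ectoderm from gastrulation onward, lies at chr5:25868112-25870379 on the reverse strand. Its signals were 11.68, 11.54 and 11.64 in EGFP-negative replicates 1 to 3 and 8.57, 9.22 and 9.40 in EGFP-positive replicates 1 to 3. The fractions are separated by 2.14 log2 units, and the EGFP-negative arrays lie close together (SD 0.075, n = 3) while the EGFP-positive arrays spread more (SD 0.43, n = 3), with replicate 1 lowest. *sox19a* was 5.89-fold lower, at -2.56 ± 0.21 on the log2 scale (SE, limma adjusted p = 0.00116). Of the 25962 genes, 18 had a difference at or below this value, *sox19a* included.

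*sox19b*, which is supplied maternally and takes part in the activation of the zygotic genome, lies at chr7:27619769-27623828. Its cluster on the reverse strand gave 8.87, 8.48 and 8.92 in EGFP-negative cells and 6.01, 6.63 and 6.65 in EGFP-positive cells. No EGFP-positive array came within 1.83 log2 units of an EGFP-negative array, and replicate 1 was again the lowest. *sox19b* was 5.02-fold lower, at -2.33 ± 0.20 on the log2 scale (SE, limma adjusted p = 0.00162). A further cluster on the forward strand covers 4032 bases of the same stretch and is listed for the same transcript. It was dimmer, at a mean of 6.63 in EGFP-negative and 5.52 in EGFP-positive cells, and was 2.16-fold lower (log2 difference -1.11, limma adjusted p = 0.00519). Both clusters were lower. The EGFP-positive signals of the dimmer cluster, 5.53, 5.70 and 5.32, lie near the array medians, so its fold may be understated and was not set against that of the other cluster. Which of the strands is that of the transcript was not settled here.

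*sox2*, the SoxB1 factor known from pluripotent cells and neural stem cells, lies at chr22:40333602-40335684 on the reverse strand and had the smallest standard error of the SoxB1 genes. EGFP-negative signals were 9.13, 8.99 and 9.19, and EGFP-positive signals were 7.36, 7.38 and 7.23. Arrays of the same fraction differed by at most 0.20, against a gap of 1.60 between the fractions. *sox2* was 3.43-fold lower, at -1.78 ± 0.094 on the log2 scale (SE, limma adjusted p = 0.000257, the smallest of the *soxB* genes). This difference stayed between -1.84 and -1.73 when any of the 6 arrays was left out.

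*sox3*, which in zebrafish is expressed in presumptive ectoderm before it confines to the neural plate, was measured by a pair of clusters on opposite strands. The brighter cluster, at chr14:33703956-33705877 on the forward strand, gave 8.69, 8.29 and 8.57 in EGFP-negative and 7.38, 7.13 and 7.20 in EGFP-positive cells. The fractions do not overlap, and in contrast to most members EGFP-positive replicate 1 was the highest of its fraction. *sox3* was 2.42-fold lower, at -1.28 ± 0.13 on the log2 scale (SE, limma adjusted p = 0.00285). The dimmer cluster, which lies within it on the reverse strand over 724 bases, had means of 5.59 and 5.04, near the array medians of 5.02 to 5.10. It did not pass (log2 difference -0.56, adjusted p = 0.163 from limma), although its fractions did not overlap either.

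The Sox1 paralogs mark neural progenitors. *sox1b* at chr1:46691435-46693214 on the forward strand had signals of 8.49, 8.11 and 8.63 in EGFP-negative and of 6.01, 6.87 and 6.87 in EGFP-positive cells. EGFP-positive replicate 1 was lowest, and the EGFP-positive arrays spanned 0.87, less than the gap of 1.24 to the EGFP-negative arrays. *sox1b* was 3.55-fold lower, at -1.83 ± 0.26 on the log2 scale (SE, limma adjusted p = 0.0117).

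For *sox1a*, at chr9:22756078-22758015 on the forward strand, signals were 6.40, 6.96 and 6.99 in EGFP-negative and 5.36, 5.98 and 5.98 in EGFP-positive cells. Replicate 1 was lowest in both fractions, and only 0.42 log2 units separate the lowest EGFP-negative from the highest EGFP-positive array. The EGFP-positive signals lie near the array medians, so the fold of *sox1a* may be understated. *sox1a* passed narrowly, at -1.01 ± 0.23 on the log2 scale (SE, limma adjusted p = 0.071). With a replicate block limma gave an adjusted p of 0.0114, but the labels do not state that equal numbers mark 1 collection. Without a block, leaving out any array but EGFP-negative replicate 1 ended the call of *sox1a*. The adjusted p from limma was then 0.208 and 0.201 without EGFP-negative replicates 2 and 3. It was 0.151, 0.127 and 0.106 without EGFP-positive replicates 1, 2 and 3. The direction held in each of these fits.

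Among the SoxB2 genes, *sox21a* encodes a repressor expressed along the neural tube. Its cluster at chr6:7331032-7332156 on the forward strand gave 8.35, 8.49 and 8.52 in EGFP-negative and 7.44, 7.64 and 7.76 in EGFP-positive cells, with no overlap. By this cluster *sox21a* was 1.79-fold lower, at -0.84 ± 0.11 on the log2 scale (SE, limma adjusted p = 0.0082). By its cluster on unplaced sequence, with signals of 8.89, 7.95 and 8.34 against 6.52, 6.72 and 6.87, it was 3.23-fold lower, at -1.69 ± 0.23 (SE, limma adjusted p = 0.0103). The 95% intervals of the clusters, from -1.10 to -0.58 and from -2.24 to -1.15, do not overlap, so the size for *sox21a* depends on the cluster while the direction does not.

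*sox21b* was represented by a cluster on unplaced sequence, with signals of 8.18, 7.64 and 7.94 in EGFP-negative and 7.06, 6.81 and 7.17 in EGFP-positive cells. All EGFP-negative arrays were higher, by at least 0.48. *sox21b*, the paralog of *sox21a*, was 1.88-fold lower, at -0.91 ± 0.16 on the log2 scale (SE, limma adjusted p = 0.029). This call was lost without EGFP-negative replicate 3 and without EGFP-positive replicate 1 or 2, at an adjusted p of 0.103, 0.0918 and 0.0977 from limma. The cluster at chr9:55102093-55104090 on the forward strand gave 6.64, 6.69 and 6.62 against 5.92, 6.07 and 6.11. Its smaller difference, 1.53-fold or -0.61 on the log2 scale (limma adjusted p = 0.0117), kept its call without any 1 of the 6 arrays.

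*sox14*, at chr6:26266207-26268149 on the reverse strand, is known from later born neurons of the brain and spinal cord. It gave 5.57, 5.91 and 5.86 in EGFP-negative and 5.32, 5.62 and 5.59 in EGFP-positive cells, so that the fractions overlap. The log2 difference of -0.27 did not pass (95% interval -0.58 to 0.04, adjusted p = 0.408 from limma). With signals this close to the array medians, *sox14* expression could not be separated from background.

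**Figure D2:**
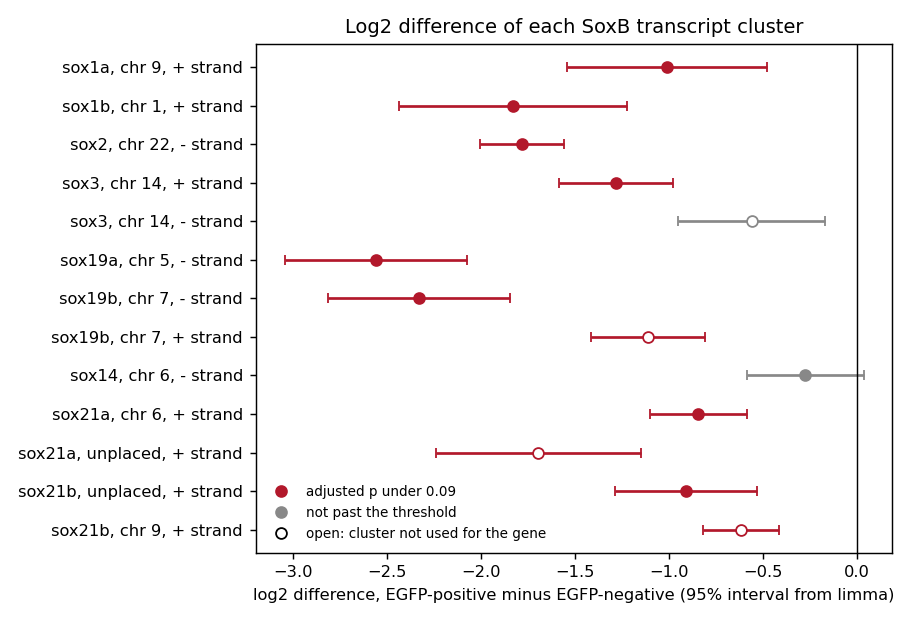
Log2 difference between EGFP-positive and EGFP-negative cells (horizontal axis, 95% interval from limma) for the 13 *soxB* clusters with distinct values. Open circles mark clusters that do not stand for the gene. All points lie below 0, from -0.27 for *sox14* to -2.56 for *sox19a*, and the intervals of the *sox21a* clusters do not overlap.

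From the lowest log2 difference upward the genes ranked *sox19a*, *sox19b*, *sox1b*, *sox2*, *sox3*, *sox1a*, *sox21b*, *sox21a* and *sox14*. The 95% intervals of neighbours in this order overlapped, except those of *sox21a* and *sox14*, which ended and began at -0.58, so the order among close neighbours is not settled. Of the genes, 6 were at least 2-fold lower and 2 at least 5-fold lower. The shares of all genes past these folds were not counted. Of all 25962 genes, 96 had a log2 difference at or below that of *sox2* and 18 at or below that of *sox19a*. The order and the counts past 2-fold and 5-fold depend on the cluster that stands for a gene. With a gene's clusters averaged, the log2 difference was -1.72 for *sox19b*, -1.41 for *sox21a*, -0.92 for *sox3* and -0.76 for *sox21b*.

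Of the *soxB* genes, 4 pairs were compared directly by the difference of their log2 signals on the same array, which asks whether both genes of a pair changed equally between the fractions. *sox1a* minus *sox1b* was -1.63 ± 0.47 (SD, n = 3) in EGFP-negative and -0.81 ± 0.14 (SD, n = 3) in EGFP-positive cells, a shift of 0.82 towards *sox1a*. The EGFP-positive signals of *sox1a*, 5.36, 5.98 and 5.98, lie near the array medians, so its change may be understated. The part this has in the shift was not tested. *sox2* minus *sox3* was 0.59 ± 0.13 (SD, n = 3) and 0.085 ± 0.15 (SD, n = 3), a shift of -0.50. In both pairs the fractions did not overlap, which with 3 arrays each gives the smallest p an exact two-sided permutation test allows (p = 0.1, or 0.2 adjusted over 4 pairs). *sox19a* and *sox19b* shifted by -0.23 relative to each other (exact permutation p = 0.2, adjusted p = 0.267), and *sox21a* and *sox21b* by 0.068 (exact permutation p = 0.9, adjusted p = 0.9), both with overlap. No pair passed, and none could have. With a gene's clusters averaged the shift moved to -0.86 for *sox2* and *sox3*, to -0.84 for the *sox19* pair and to -0.65 for the *sox21* pair, so these values depend on the cluster.

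**Figure D3:**
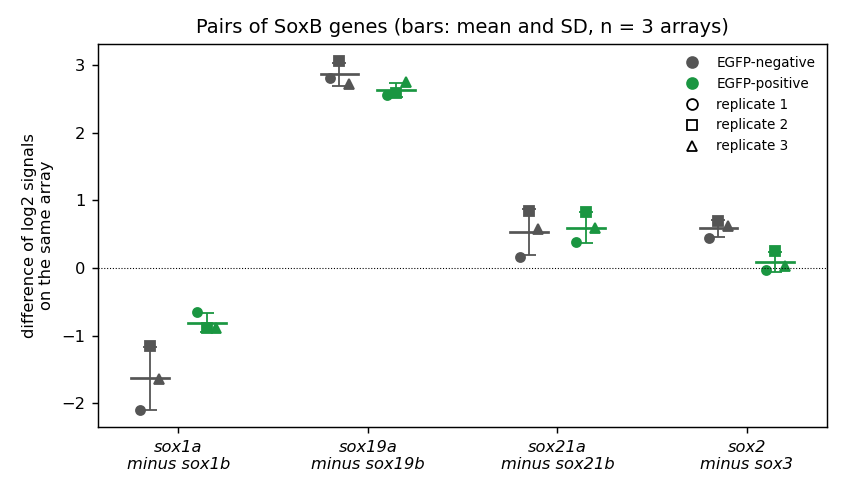
Difference of log2 signals between the genes of a pair on the same array (vertical axis), in EGFP-negative (grey) and EGFP-positive (green) cells, with bars for mean and SD. The fractions are apart for *sox1a* minus *sox1b* and for *sox2* minus *sox3* and overlap for the others.

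The arrays of the EGFP-positive fraction did not carry equal *soxB* signal. Replicate 1 was the lowest of its fraction for 6 of 9 genes (*sox1a*, *sox1b*, *sox19a*, *sox19b*, *sox14* and *sox21a*), and its mean over the 9 genes was 6.72, against 7.03 and 7.09 in replicates 2 and 3. The mean log2 signal of 10 lateral plate markers, *drl* included, was 10.2 in EGFP-positive replicate 1 and 9.74 and 9.47 in replicates 2 and 3. Of these markers 7 were highest in replicate 1. The blood and vessel regulators *tal1* (9.84, 8.53 and 8.03) and *lmo2* (10.64, 9.55 and 8.86) were so by much. The heart regulator *tbx20* also fell from replicate 1 to 3 (9.61, 9.19 and 8.68), while the heart regulator *hand2* hardly differed (9.19, 9.12 and 9.09). *drl* itself was lowest in replicate 1, at 9.73 against 9.99 and 10.1. The part that the purity of the sort has in these differences was not tested. Without EGFP-positive replicate 1, 6 of 9 *soxB* genes were lower, where 874 of 75212 clusters over the array were. The count was also 6 without EGFP-positive replicate 2 and without EGFP-negative replicate 3, so it is not particular to replicate 1. *sox1b* kept its call without EGFP-positive replicate 1, with a log2 difference of -1.54.

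The sort itself was checked with markers, beside 3.49% of all genes lower and 4.13% higher at the same threshold. *drl* was 12.4-fold higher in EGFP-positive cells, with signals of 9.73, 9.99 and 10.1 against 6.29, 5.84 and 6.75. The cells were sorted by a *drl* reporter, so *drl* is not a separate check of the sort. The reporter fragment described in the paper also holds non-coding exon sequence of *drl*. Whether the *drl* probes detect the reporter transcript was not tested. All 10 lateral plate markers measured, *drl* included, were higher. Outside this list, the endoderm genes *sox32* and *sox17* were higher as well, by 10.9-fold and 9.59-fold. Many but not all markers of other ectoderm were lower too. Of 11 epidermis markers 8 were lower, with list means of 9.51 to 9.78 in EGFP-negative and 7.85 to 8.25 in EGFP-positive arrays. Of 10 neural crest and placode markers 5 were lower and 2 (*snai1b* and *six1b*) higher, with list means of 8.87 to 9.11 and 7.90 to 8.10, and 1 was higher without EGFP-negative replicate 2 or EGFP-positive replicate 1 or 2. Of 8 notochord markers 4 were lower and 1 higher, with list means of 8.31 to 8.37 and 7.54 to 7.83, and 2 were lower with any EGFP-negative array left out and 2 were higher without EGFP-positive replicate 1. Paraxial mesoderm markers gave 1 lower and 2 higher of 10, with list means of 8.77 to 9.003 and 9.02 to 9.20. Their median log2 difference was 0.20, so this list as a whole was not lower in EGFP-positive cells. These are log2 signals, which have no true 0, so no marker was called absent. How far the mixture of tissues in the EGFP-negative fraction sets the *soxB* differences was not tested.

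Genes known as partners or targets of SoxB1 proteins were lower as well, though not as a whole. Of 27 such genes, 15 were lower, 1 was higher and 11 did not pass, with a median log2 difference of -0.62. Over all genes, 3.49% were lower and 4.13% higher. With a replicate block, 11 of the 27 were lower. *her3*, a Hairy-related repressor of neurogenesis, had the lowest difference of this list, with signals of 11.12, 10.83 and 11.26 in EGFP-negative and 7.97, 8.71 and 9.11 in EGFP-positive cells (log2 difference -2.47, adjusted p = 0.00475 from limma). The eye and neural tube regulator *pax6b* followed at -2.45 (adjusted p = 0.0002 from limma). Also lower were the proneural gene *neurog1* at -2.24, the forebrain repressor *hesx1* at -2.22 and the neuronal RNA-binding protein gene *elavl3* at -2.14. *pou5f3*, whose POU protein binds DNA together with SoxB1 factors in the early embryo, was lower by 1.81-fold, with signals of 9.58, 9.85 and 9.88 against 8.63, 8.96 and 9.15 (adjusted p = 0.0317 from limma).

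Of the Zic genes in this list, zinc finger factors of the neural plate and dorsal mesoderm, *zic1* was 4.64-fold lower (adjusted p = 0.000218 from limma), and *zic4* was lower too. *zic5* only just passed, at -0.37 on the log2 scale (limma adjusted p = 0.0895). Its means, 4.86 in EGFP-negative and 4.49 in EGFP-positive cells, lie below the array medians, so its expression could not be separated from background. *cdh2*, the N-cadherin gene of neural plate and mesoderm, did not pass, at 0.20 on the log2 scale (limma adjusted p = 0.338). The POU factor gene *pou3f3b* was higher at 2.02-fold (adjusted p = 0.0316 from limma), a call that was lost without EGFP-negative replicate 2 or 3 or EGFP-positive replicate 1 or 2. The zinc finger gene *sall4*, with the next highest value of the list, stood at 0.26 on the log2 scale (limma adjusted p = 0.177).

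Of 26 regional regulators of the neural plate, which act in territories inside the *soxB* domain, 20 were lower and 0 higher, with a median log2 difference of -1.17. Over all genes, 3.49% were lower and 4.13% higher. With a replicate block, 17 of the 26 were lower. *prdm12b*, a gene of interneuron progenitors, had the lowest value at -2.94 (adjusted p = 0.00235 from limma) and the forebrain gene *fezf2* the next at -2.84 (adjusted p = 0.00459 from limma). At the other end, *gbx2* stood at 0.40 and *pax2a* at 0.23 on the log2 scale (limma adjusted p = 0.215 and 0.453). Both act at the boundary of midbrain and hindbrain, and *pax2a* also in the intermediate mesoderm.

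Sox genes outside the SoxB group did not share one direction. Of 15 measured, 4 were lower, 3 were higher and 8 did not pass, with a median log2 difference of 0.04. Over all genes, 3.49% were lower and 4.13% higher. The SoxE genes *sox9b* and *sox9a*, which act in neural crest and placodes, were lower at -1.43 and -1.14 (adjusted p = 0.0115 and 0.00368 from limma). The SoxF genes *sox32* and *sox17*, which specify endoderm, were 10.9-fold and 9.59-fold higher (adjusted p = 0.00448 and 0.000225 from limma), and *sox18* of the same subgroup was lower at -1.08. The EGFP-positive signals of *sox18*, 5.25, 5.15 and 4.96, lie near the array medians, so its difference may be understated. Of the SoxC genes, *sox4a* was higher at a log2 difference of 0.86 and *sox11a* lower at -0.92. The SoxC genes *sox4b*, *sox11b* and *sox12* did not pass, at 0.11, -0.04 and 0.60 (limma adjusted p = 0.602, 0.888 and 0.201). A difference between the SoxB group and other Sox genes was not tested.

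**Figure D4:**
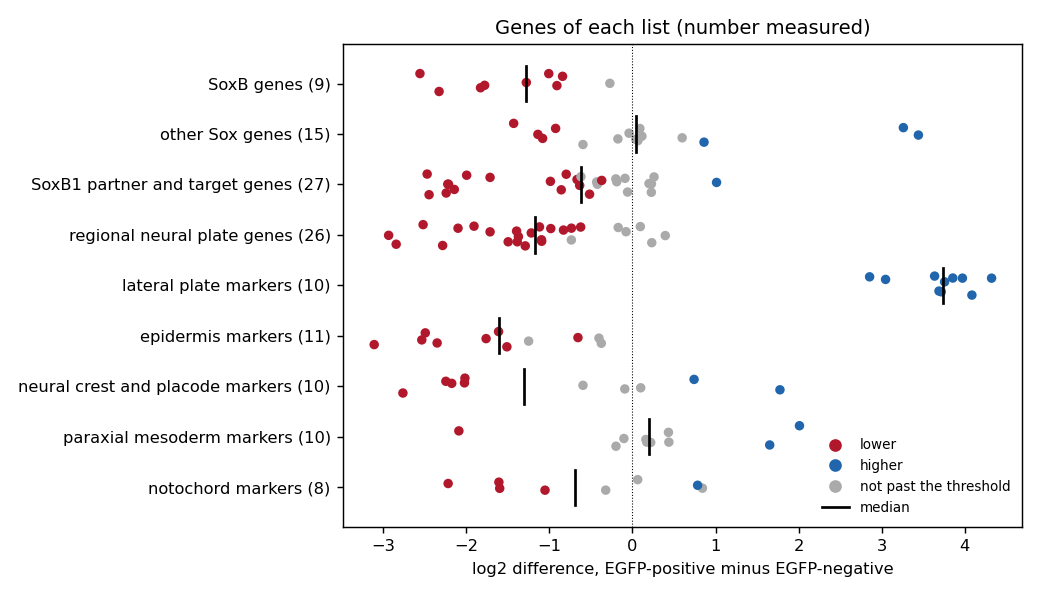
Log2 difference between EGFP-positive and EGFP-negative cells (horizontal axis) for each measured gene of 9 lists, red for lower, blue for higher and grey for genes not past the threshold, with the median as a black line. The *soxB* genes lie between -2.56 and -0.27, and the other Sox genes between -1.43 and 3.44.

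The genes most like the *soxB* genes were sought by Pearson's r between their 6 signals and the mean centred profile of the 8 lower *soxB* genes, among 1679 genes that span at least 1 log2 unit. With 6 arrays in 2 fractions, many genes that differ between the fractions reach a high value, so this is a description only. The 5 highest, with r from 0.998 to 1.00, were *wnt1*, a signal of the midbrain-hindbrain boundary and dorsal neural tube, *mdkb*, which encodes a midkine growth factor of the neural plate, *tagln2*, which encodes an actin-binding protein, the prostaglandin synthase gene *ptgs2a* and the protocadherin gene *pcdh18a*. Their log2 differences were -2.29, -2.40, -1.23, -3.28 and -1.87 in the same order. Signals of *wnt1* were 8.35, 8.12 and 8.49 in EGFP-negative and 5.74, 6.18 and 6.19 in EGFP-positive cells, with replicate 2 lowest in the first fraction and replicate 1 in the other, as in *sox19b*.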

How the data were processed

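The authors corrected the background by MAS and normalized the ZebGene-1_1-st arrays by RMA to the gene level in ExpressionConsole, and the deposited values are log2 signals. The authors' deposited annotation gave the symbol, the Zv9 position and the number of probes (another kind of value, with no unit) for each cluster. Fold, t, p-value and log odds columns of the authors' own comparison, held in the same table, were not used. The fractions were compared by limma 3.58.1 (lmFit and eBayes) in R 4.3.3 over all 75212 clusters, two-sided, with Benjamini-Hochberg adjustment over all of them. The threshold of 0.09 is that of the methods, which name siggenes, a tool not used here. Lists were summarised in Python 3.11.15 (numpy 2.4.6, pandas 2.3.3) and plotted with matplotlib 3.10.9. In a simulated set of 75212 clusters, the procedure found 14 of 50 that were altered 1.5-fold and 29 of 50 altered 2-fold. The altered clusters were drawn only from those with a mean signal above the median of all clusters. Noise was drawn independently for each cluster and array, so finding dimmer clusters was not tried. It found 50 of 50 altered 5-fold and 49 of 50 altered 10-fold. Among its 165 calls, 23 were false. Changes of 2-fold or less were thus often missed in that run. The measured arrays gave far more calls, 2228 clusters higher and 1384 lower. With fewer calls the adjustment is stricter, so the shares found in the simulated set do not carry over to these data.

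Array medians ran from 5.02 to 5.10, and r across clusters, which are not independent replicates, was 0.988 to 0.991 within and 0.978 to 0.987 between fractions. Precision is limited by the number of arrays. The members and lists were chosen with earlier results of these data known. Besides all *soxB* genes and *drl*, the genes named are the 2 with the lowest and the 2 with the highest log2 difference of the lists of partners, regional genes and other Sox genes, and 5 genes of like profile. *neurog1*, *hesx1*, *elavl3*, *pou5f3*, *zic1*, *zic4*, *zic5*, *cdh2*, *hand2*, *tbx20*, *tal1*, *lmo2*, *snai1b*, *six1b* and the neighbours were named after their values were seen. So were *sox4a*, *sox4b*, *sox11a*, *sox11b*, *sox12* and *sox18*. Of the listed genes, 10 were matched through an older symbol from a table of a later assembly (GRCz12tu), used for names only, and *sox13*, *sox8a* and *npas4l* were not matched.

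The tests were repeated without each array in turn, with a replicate block, at an adjusted p under 0.05, with a prior variance that follows intensity, after quantile normalization or median centring, over clusters with a mean log2 signal of at least 5, over clusters with 1 symbol, with identical clusters entered once, and with a gene's clusters averaged.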

Additional observations from a re-analysis of the deposited data

How the results depend on the processing

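All 9 *soxB* differences kept their direction under every alternative run. The count of *soxB* genes lower was 8 in each alternative except an adjusted p under 0.05, where *sox1a* (log2 difference -1.01, adjusted p = 0.071 from limma) was lost and 7 remained, and the fits without 1 array, with 6 to 8. With an array left out, *sox1a* ranged from -1.20 to -0.80 and *sox21b* from -1.05 to -0.78, and the clusters called over the whole array ranged from 1275 to 2034 higher and from 874 to 1118 lower, beside 2228 and 1384. The fewest higher clusters were found without EGFP-positive replicate 2 and the fewest lower without EGFP-positive replicate 1. The labels do not state pairs, so the numbers were not taken as pairs. Deviations of same-numbered arrays of the fractions had r of -0.028, 0.041 and 0.094 for numbers 1, 2 and 3. Arrays of unlike number gave -0.10 to 0.046. These r values run over all clusters, dim ones included, so they do not settle whether equal numbers share a collection. A replicate block gave 8 *soxB* genes lower, with an adjusted p of 0.0114 from limma for *sox1a*, and 11 partner or target genes and 17 regional genes lower against 15 and 20, and 1745 clusters higher and 1074 lower over the array. With a gene's clusters averaged, which counts the repeated *sox21a* values with each copy, the pair shifts were -0.84 for *sox19a* minus *sox19b*, -0.65 for *sox21a* minus *sox21b* and -0.86 for *sox2* minus *sox3*, against -0.23, 0.068 and -0.50. A further quantile normalization moved the median log2 difference of all clusters from 0.017 to -0.016. Signals near the array medians, as for *sox14* and the reverse strand cluster of *sox3*, limit what can be detected. Over clusters with 1 symbol, over clusters with a mean log2 signal of at least 5 and with identical clusters entered once, 2 notochord markers were higher in place of 1, and over clusters with 1 symbol 4 paraxial markers were higher in place of 2.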

Other observations

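Clusters near the *soxB* genes were looked at as values outside the comparisons above. Within 100 kb of a *soxB* cluster placed on a chromosome lie 74 clusters of other genes or without a symbol, of which 5 were lower and 3 higher, where 1.84% and 2.96% of all clusters were. These are clusters, and some overlap each other. None of the 74 lies near *sox2* or *sox21b*. Lower were *mpdu1a* (log2 difference -1.31) and LOC565335 (-0.51) near *sox19a*, *her8a* (-0.40) and LOC565556 (-0.69) near *sox19b*, and *abcc4* (-0.86) near *sox21a*. Higher were both clusters of *fkbp11* near *sox21a*, at 1.33 and 1.56, and a cluster without a symbol near *sox3*, at 0.67.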
